A study of Homo sapiens with 4 samples.

Results

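The CDK inhibitors and D-type cyclins are the genes that hold back or drive the first step of the cell division cycle. Here they comprised 10 genes, the Cip/Kip inhibitors CDKN1A, CDKN1B and CDKN1C, the INK4 inhibitors CDKN2A, CDKN2B, CDKN2C and CDKN2D, and the cyclins CCND1, CCND2 and CCND3. Members were found by their symbol in the authors' probe table, which gave 12 probes of 58201 and 10 genes of 34755, measured by 21 of the 60901 spots that were not controls. CDKN1B and CDKN2A had 2 probes each, the CCND1 probe was printed 10 times on every array, and each other probe had 1 spot.

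The RNA came from SUM149, an established line of inflammatory breast cancer cells. Cells were left untreated or were given 2.5 uM of Ricolinostat (ACY1215), a small molecule inhibitor of the deacetylase HDAC6, for 3, 6 or 12 hours, with no genetic change in any group. Each of these 4 conditions was 1 two-colour Agilent array, all on 1 slide, with the sample in Cy5 and in Cy3 a reference labelled as the pool of the untreated and treated SUM149 samples. The study used the arrays to follow a transcript score of HDAC6 activity after the drug.

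Levels below are in scanner units, and those of the members are spot signals not normalized between arrays. A change is the log2 of normalized Cy5 over Cy3 at a time minus the same value on the untreated array. A log2 change of 1 is thus 2-fold. With 1 array per condition there was no replicate culture, so no test between conditions was possible and no value carries a replicate error. The only error that could be measured was that between repeated spots. Over the 159, 201 and 211 probes with 9 or more usable spots, the log2 changes of such spots had SDs of 0.17, 0.12 and 0.12 for the 3, 6 and 12 hour arrays. It covers spots of 1 labelled RNA, not cultures or labelling. Arrays of cells kept without the drug for 3, 6 or 12 hours were not analysed here, so drug and time in culture cannot be told apart. Fewer cells of a type and less RNA per cell also cannot be told apart in RNA of whole cultures.

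The median Cy5 signal per array was 36 to 40 units over a median background of 24, and 57.2% to 61.4% of probes were well above background in Cy5. Spots in damaged areas made up 3.27% of the untreated array, 4.64% of the 3 hour array, 0.254% of the 6 hour array and 0 of the 12 hour array, and none of the 21 member spots was flagged as an outlier or lay in such an area. All 5 epithelial markers were detected on every array, as were 9 of 9 basal mammary markers on the treated arrays and 7 of 9 on the untreated array, where every spot of KRT6A and KRT14 was flagged. Of 6 luminal and hormone receptor markers, 4 or 5 passed the background flag on each array, with summed Cy5 levels of 839 to 1081.5 units. The progesterone receptor gene PGR was not well above background on any array. Of the markers of other cell types, 3 or 4 of 6 fibroblast, 4 of 5 blood and 3 of 3 endothelial genes passed the background flag, with summed Cy5 levels of 507 to 661, 980 to 1327 and 257 to 299 units against 72537 to 107178 units for the epithelial list. COL3A1 and PDGFRA of the fibroblast list and the B cell marker MS4A1 of the blood list were not well above background on any array. The part of these genes in the values below was not tested.

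At most member probes the reference did not lie among the samples, as a pool of them would if both dyes reported alike. Log2 of Cy5 over Cy3 was below 0 on all 4 arrays at 9 of the 12 member probes, among them CDKN2B, whose Cy5 lay at background. It was above 0 on all 4 at CCND3 (1.04 to 1.55) and CDKN1A (0.19 to 1.16), and only CDKN2D lay on both sides. Cy3 was brightest relative to Cy5 at CDKN1C (log2 of Cy5 over Cy3 between -4.32 and -3.04), CCND2 (-3.60 to -3.47) and the CDKN2A probes A_33_P3411628 (-2.68 to -2.47) and A_23_P43490 (-1.90 to -1.66), whereas a pool of these samples would lie among them if both dyes reported alike. No array had its dyes swapped, so a dye effect and the content of the reference cannot be told apart. Changes between arrays take the same Cy3 reference away on both sides, and the change in Cy5 alone is given for the members where it differed by more than the SD between spots.

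D-type cyclins bind and activate CDK4 and CDK6, which phosphorylate the retinoblastoma protein RB1 and so release E2F transcription factors that switch on the genes of DNA replication. INK4 proteins bind CDK4 and CDK6 and keep cyclin D away from them, while Cip/Kip proteins bind whole cyclin and CDK complexes and block above all CDK2. Most of these proteins are also controlled by ubiquitin-dependent breakdown, and inhibitors of class I histone deacetylases are known to raise CDKN1A transcription through GC boxes near its start site.

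RefSeq promoter windows were available for 7 of the 10 genes. CCND1, CCND2 and CDKN1C were not among them. Shown are the 250 bases before the start site, 5′ to 3′ on the gene's strand in GRCh38.p14, of the member with the largest change (CDKN2D, chr19:10568980-10569229, minus strand), of CDKN1A (chr6:36678464-36678713, plus strand), whose call depended on the processing, and of CDKN1B (chr12:12717118-12717367, plus strand), which stayed near its untreated value. Capitals mark GC boxes (GGGCGG or its complement CCGCCC) and CCAAT boxes (CCAAT or its complement ATTGG).
CDKN2D: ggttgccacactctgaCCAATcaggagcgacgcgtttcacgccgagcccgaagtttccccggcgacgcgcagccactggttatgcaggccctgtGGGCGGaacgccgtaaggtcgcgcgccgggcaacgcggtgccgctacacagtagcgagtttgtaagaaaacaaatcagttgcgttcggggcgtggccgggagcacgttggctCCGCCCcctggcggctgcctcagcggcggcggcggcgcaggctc
CDKN1A: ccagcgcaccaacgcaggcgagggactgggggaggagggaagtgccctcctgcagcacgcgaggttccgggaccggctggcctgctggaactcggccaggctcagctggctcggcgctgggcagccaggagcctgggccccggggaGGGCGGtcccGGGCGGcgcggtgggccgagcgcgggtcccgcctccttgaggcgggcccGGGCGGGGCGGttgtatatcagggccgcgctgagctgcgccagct
CDKN1B: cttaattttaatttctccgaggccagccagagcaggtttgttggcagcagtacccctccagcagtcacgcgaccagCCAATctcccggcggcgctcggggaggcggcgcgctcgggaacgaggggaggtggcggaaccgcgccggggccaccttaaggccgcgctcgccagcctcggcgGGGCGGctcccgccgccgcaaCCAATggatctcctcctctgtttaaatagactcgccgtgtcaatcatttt

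The CDKN2D window held 2 GC boxes and 1 CCAAT box, that of CDKN1A held 4 GC boxes, overlapping ones included, and 0 CCAAT boxes, and that of CDKN1B held 1 GC box and 2 CCAAT boxes. Over all 35116 RefSeq windows of this length, 42.6% held a GC box and 32.0% a CCAAT box. The bases G and C made up 67.6%, 76.4% and 64.4% of the 3 windows. These matches describe letters in the windows and no binding.

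Of the 12 member probes, 11 were well above background in both channels on all arrays. The log2 change of CDKN2D, CDKN1C, CDKN2C, CDKN1A, CCND3 and the CDKN1B probe A_24_P81841 was above 0 at every time. That of CCND1 and of the CDKN2A probe A_33_P3411628 was below 0 at every time. Some of these changes were small, and those of CDKN1A and CCND3 at 3 hours, 0.15 and 0.08, were below the SD of 0.17 between spots. The 2-fold line was passed by CDKN2D from 3 hours and CDKN1C from 6 hours. At 3 hours 1 of the 11 measured probes had risen at least 2-fold, where 1.34% of all 31276 probes measured had done so. At 6 hours 2 of 11 had risen, against 2.2% of 30500 probes, and at 12 hours 2 of 11, against 1.82% of 30745 probes. No member probe fell 2-fold, as did 0.304%, 0.787% and 0.937% of all probes. At the lower line of 1.5-fold, 2, 4 and 4 of the 11 probes were higher at 3, 6 and 12 hours (5.68%, 7.73% and 6.66% of all probes) and 0, 1 and 1 were lower (1.73%, 3.93% and 4.53% of all probes). At 4-fold only CDKN2D at 6 hours remained, where 0.0544%, 0.0918% and 0.0748% of all probes were higher and 0.0352%, 0.0459% and 0.0455% lower at 3, 6 and 12 hours.

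**Figure D1:**
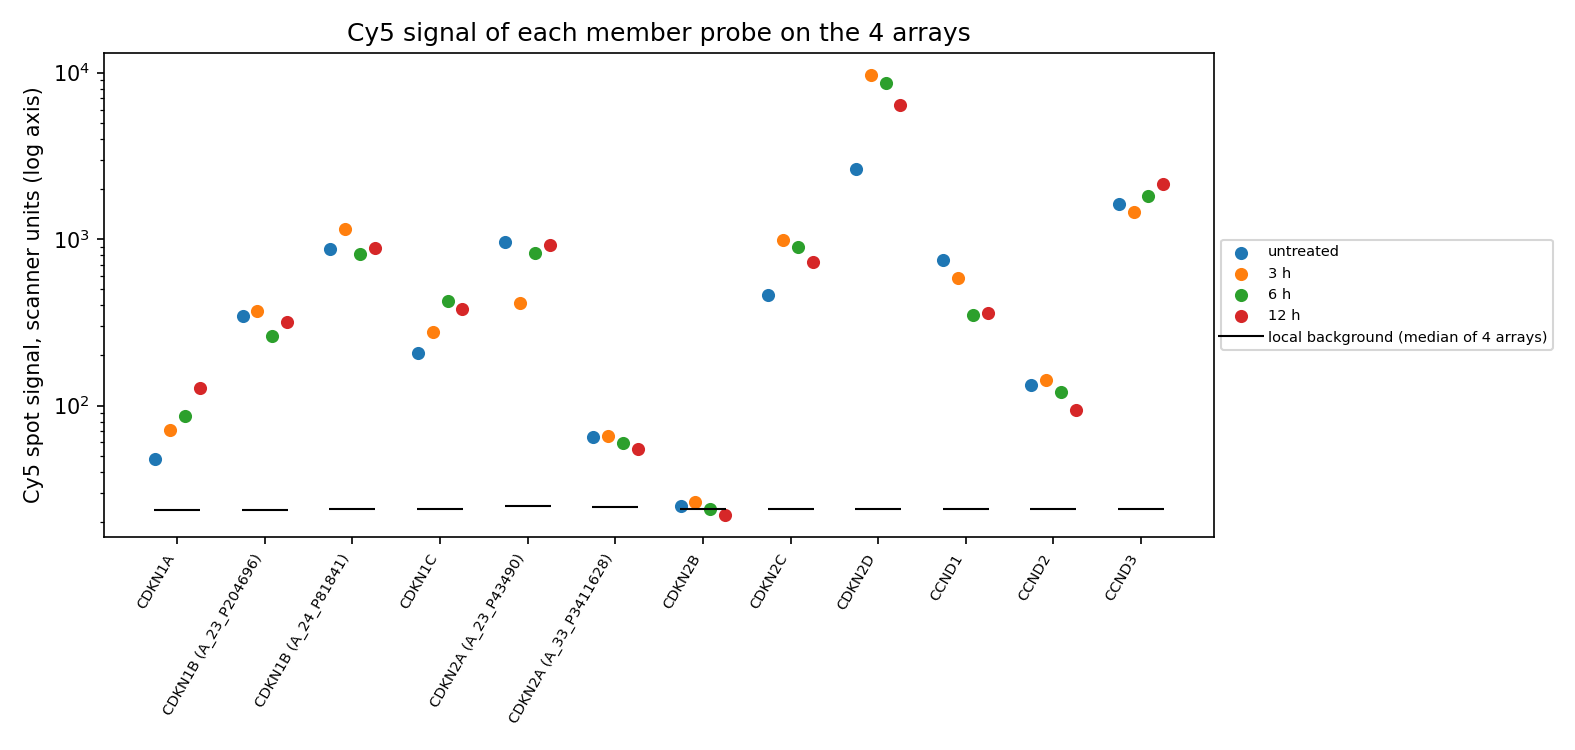
Cy5 spot signal in scanner units (log axis) of the 12 member probes, 1 point per array, with the median of 10 spots for CCND1, and a black line for the local background. CDKN2D lies at 2631.5 units in untreated cells and at 6425 or above after the drug, while the CDKN2B points lie at the background. Heights of different probes cannot be compared.

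CDKN1A encodes p21, an inhibitor induced by many kinds of cell stress. Its probe A_24_P89457, designed on transcript variant 2, was dim, with Cy5 signals of 48, 71, 87 and 128 units on the untreated and the 3, 6 and 12 hour arrays over a local background of 23 or 24. The signal was thus higher on each later array, and the untreated array was the lowest. The probes with repeated spots were all brighter, with a mean log2 over both dyes of 7.41 or above at 3 hours. CDKN1A had log2 values of 6.36 and 6.65 in Cy5 and 6.17 and 6.31 in Cy3 on the untreated and 3 hour arrays. The spot error at its brightness was thus not measured. The log2 change was 0.15 at 3 hours, below the SD of those brighter probes, then 0.62 at 6 hours and 0.96 at 12 hours. The last, 1.95-fold, was just short of the 2-fold line. This value rested on the background correction, since at 12 hours it was 1.61 with a normexp offset of 1 and 1.34 without background subtraction. The 12 hour change was also 1.93 from the scanner software's own signals and 1.51 in the authors' table. In Cy5 alone, which keeps the main background correction, it was 1.06. The offset adds a constant that pulls dim probes towards 0. In a simulation of 12 hours against untreated on 34631 spots with 200 planted changes, the 108 planted spots under 200 units gave back a median share of 0.422 of the planted log2 change, and the 92 brighter ones 0.875. The lower share of dim spots follows from the offset by construction and is no separate evidence on CDKN1A.

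CDKN1B encodes p27, an inhibitor held mainly through protein breakdown. Its probe A_23_P204696 gave Cy5 signals of 347, 371.5, 260 and 318 units in untreated cells and at 3, 6 and 12 hours, and its probe A_24_P81841 gave 877.5, 1144, 817.5 and 883 units. In both probes the signal was highest on the 3 hour array and lowest on the 6 hour array. Normalized Cy5 was instead highest at 12 hours at both probes. At A_24_P81841 it was lowest in untreated cells (log2 of 9.57 against 9.66 at 6 hours). The log2 changes were 0.09, -0.17 and 0.19 at the first probe and 0.18, 0.08 and 0.27 at the second. Only the last of these 6 values exceeded 2 SDs between spots, and under median centring both 12 hour values lay below 0, at -0.06 and -0.02.

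CDKN1C encodes p57, an imprinted inhibitor linked to differentiation. Its probe A_23_P428129 gave Cy5 signals of 206.5 units in untreated cells, 277.5 at 3 hours, 422 at 6 hours and 379 at 12 hours, with the untreated array the lowest. The log2 change was 0.56 at 3 hours (1.47-fold), and CDKN1C rose by 1.28 at 6 hours and 1.27 at 12 hours, or 2.44-fold and 2.41-fold. Both later values were past 2-fold under all 9 processings tried, with lowest values of 1.11 and 1.002, the latter under median centring. In Cy5 alone the changes were 0.27, 1.11 and 1.09. Only 281 probes at 6 hours and 248 at 12 hours had a larger rise.

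CDKN2D encodes p19, an INK4 inhibitor, and had the largest change of the members at every time in the main processing. From the scanner software's own signals CDKN1A had the larger change at 12 hours, 1.93 against 1.79 for CDKN2D. The CDKN2D probe A_23_P89941 gave Cy5 signals of 2631.5 units in untreated cells, 9678.5 at 3 hours, 8627 at 6 hours and 6425 at 12 hours. Its Cy3 signals were 2233.5, 2210, 2009 and 2040 units. All treated arrays lay well above the untreated one in Cy5 while the reference stayed within a narrow range. CDKN2D rose 3.25-fold at 3 hours, 4.11-fold at 6 hours and 3.49-fold at 12 hours, log2 changes of 1.70, 2.04 and 1.80. It was past 2-fold at each time under all 9 processings, which gave 1.66 to 1.87 at 3 hours, 1.88 to 2.07 at 6 hours and 1.47 to 1.82 at 12 hours, with 1.64 in Cy5 alone at that time. Of all probes measured, 34, 25 and 43 had a larger rise at 3, 6 and 12 hours.

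CDKN2C encodes p18, another INK4 inhibitor. Its probe A_33_P3292540, designed on transcript variant 2, gave Cy5 signals of 462, 991, 895.5 and 728 units in untreated cells and at 3, 6 and 12 hours. As at CDKN2D, every treated array lay above the untreated one and the 3 hour signal was the highest. Normalized Cy5 was instead highest at 6 hours at both genes. Its log2 values at 3, 6 and 12 hours were 9.63, 9.79 and 9.62 at CDKN2C and 12.79, 12.97 and 12.68 at CDKN2D. The log2 changes were 0.82, 0.95 and 0.66, or 1.77-fold, 1.94-fold and 1.58-fold, all larger than 2 SDs between spots and all short of 2-fold. Median centring put the 3 hour change at 1.01, and Cy5 alone put the 6 and 12 hour changes at 1.06 and 0.89.

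CDKN2A encodes p16 and, from another promoter, the protein ARF. The probe A_23_P43490, designed on transcript variant 3, gave Cy5 signals of 957, 415.5, 820 and 924 units, and the probe A_33_P3411628, designed on variant 1, gave 65, 66, 59.5 and 55 units. At the first probe the 3 hour array stood apart in both colours, with Cy3 at 1093.5 units against 2368 to 2768 on the others. The log2 changes of Cy5 over Cy3 were -0.05, -0.12 and 0.11 at this probe and -0.21, -0.10 and -0.14 at the other, all within 2 SDs between spots. In Cy5 alone the changes were -1.17, 0.01 and 0.28 at the first probe, and 0.03 at both 6 and 12 hours at the other.

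CDKN2B encodes p15, an inhibitor induced by TGF-beta. Its probe A_23_P216812 gave Cy5 signals of 25, 26.5, 24 and 22 units over a local background of 24, so it was not well above background on any of the 4 arrays and no change is given.

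**Figure D2:**
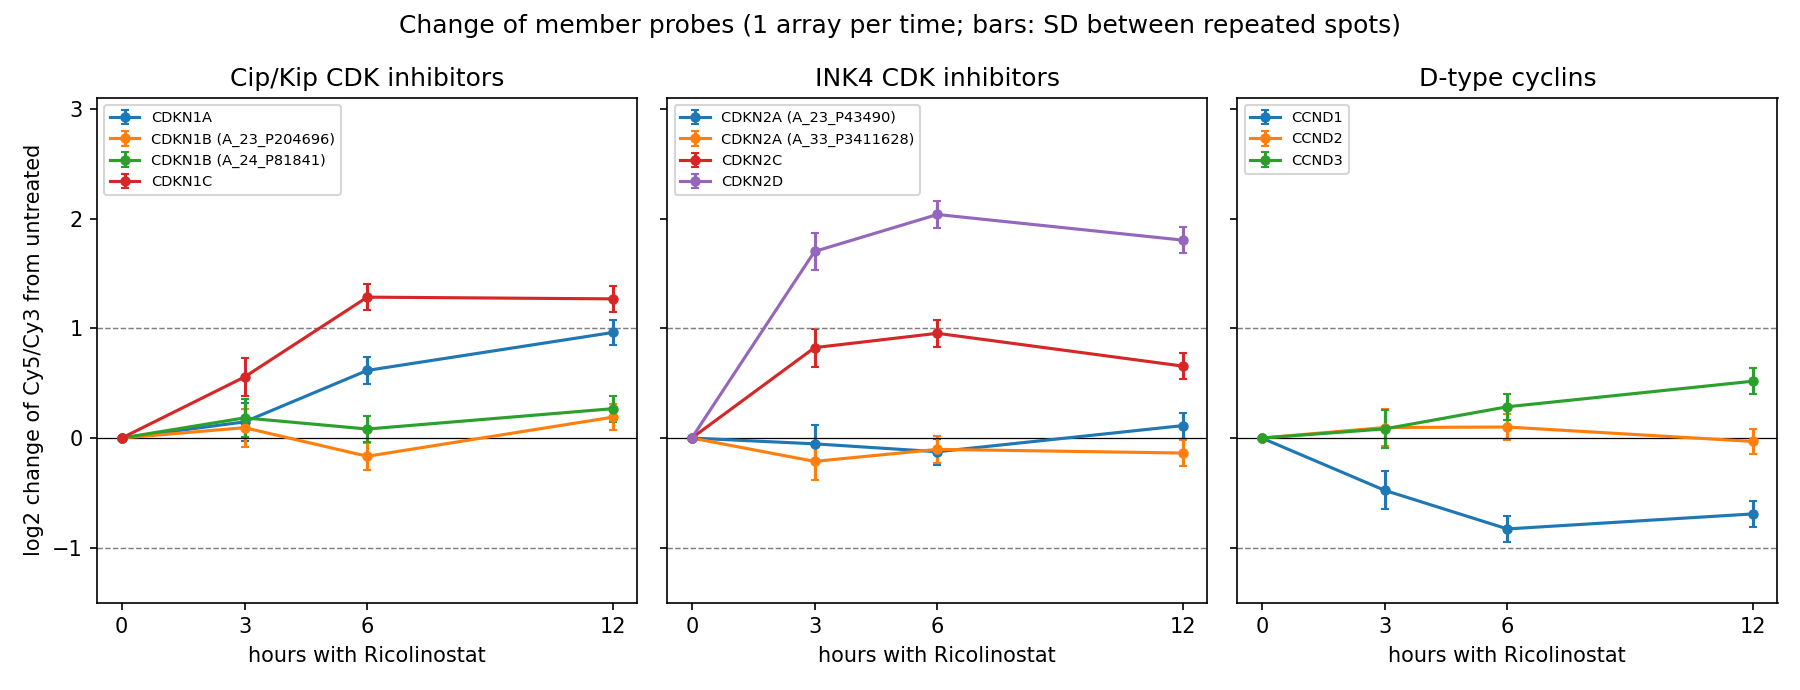
Log2 change of Cy5 over Cy3 from the untreated array (set to 0) at 3, 6 and 12 hours for the 11 measured member probes. Bars are the SD between repeated spots of other probes, not between cultures, dashed lines mark 2-fold, and CDKN2B, at background, is not drawn. The CDKN1A probe was dimmer than any probe behind the bars. CDKN2D lies above 1 at every time, CDKN1C at 6 and 12 hours, and CCND1 below 0 at every time.

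CCND1 encodes cyclin D1, the D-type cyclin amplified in part of breast cancers. Its Cy5 signal, the median of 10 spots, was 749 units in untreated cells, 584.75 at 3 hours, 349.75 at 6 hours and 359.5 at 12 hours, while Cy3 stayed between 730.25 and 768 units. Over its spots the log2 change averaged -0.48 ± 0.12, -0.83 ± 0.13 and -0.69 ± 0.11 for the 3, 6 and 12 hour arrays (SD between the 10 spots of 1 array pair). The spots ranged from -0.60 to -0.20, from -1.03 to -0.67 and from -0.86 to -0.51, so every one was below 0 at every time. These means are 1.39-fold, 1.78-fold and 1.61-fold lower, and only median centring took them past 2-fold, with -1.04 at 6 hours and -1.01 at 12 hours.

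**Figure D3:**
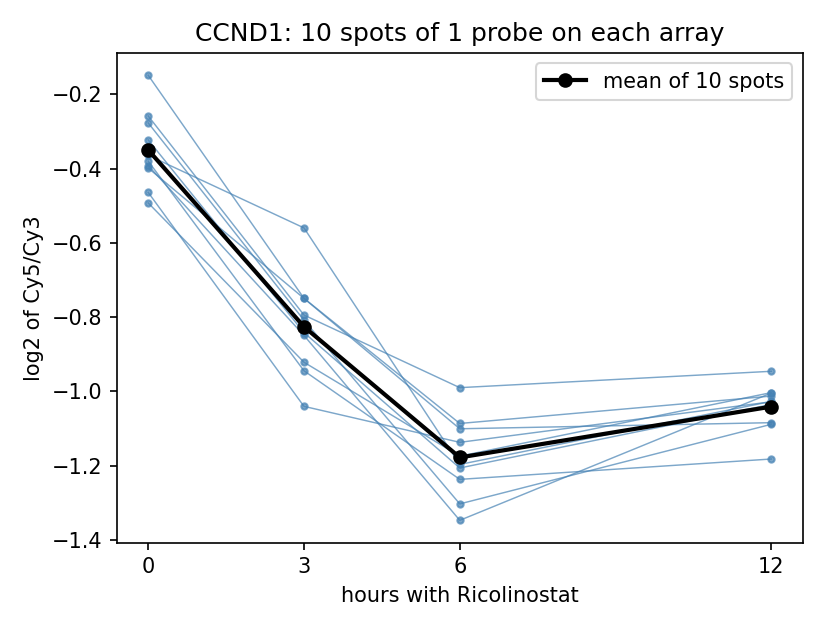
Log2 of Cy5 over Cy3 at each of the 10 CCND1 spots (thin lines) and their mean (black) in untreated cells (0) and at 3, 6 and 12 hours. The mean lies at -0.35 on the untreated array and at -0.83, -1.18 and -1.04 on the treated ones, and the spots repeat 1 RNA per array.

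CCND2 encodes cyclin D2. Its probe A_24_P278747 gave Cy5 signals of 133, 143, 121 and 93.5 units in untreated cells and at 3, 6 and 12 hours, with the 12 hour array the lowest. Its log2 changes of 0.10, 0.10 and -0.03 in the main processing lay within the spread between spots. At 12 hours the change was -0.20 with a normexp offset of 1, -0.26 in the authors' table and -0.31 under median centring. CCND3 encodes cyclin D3, and its probe A_23_P361773 gave Cy5 signals of 1618, 1453, 1812 and 2128 units, with the 3 hour array the lowest and the 12 hour array the highest. Its log2 changes were 0.08, 0.29 and 0.52, of which the last, 1.43-fold, was 0.24 under median centring and 0.68 in Cy5 alone. In Cy5 alone the 3 hour change of CCND3 was -0.24, on the other side of 0. Among the D-type cyclins, CCND1 lay below 0 by more than 2 SDs at each time and CCND3 above 0 by as much at 6 and 12 hours.

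Members also differed in their course from 6 to 12 hours, where repeated spots had an SD of 0.077 over 233 probes. The CDKN1A probe was dimmer than the probes behind the SDs of the changes from untreated. The log2 ratio of CDKN1A was higher by 0.35 at 12 hours than at 6 hours, and those of CDKN1B were higher by 0.36 and 0.19, that of CCND3 by 0.23 and that of the CDKN2A probe A_23_P43490 by 0.24. CDKN2C and CDKN2D were lower by 0.30 and 0.23, past their highest value. Under median centring each of these rises was smaller and both falls were larger. Its changes at 6 and 12 hours were 0.13 and 0.24 for CCND3, and -0.08 and -0.02 for CDKN1B probe A_24_P81841. For this CDKN2A probe they were -0.31 and -0.21. The steps of CDKN1C (-0.02), CCND2 (-0.13) and the other CDKN2A probe (-0.03) were within 2 SDs. That of CCND1 (0.14) was also within 2 SDs of single spots, but it is a mean over 10 spots. Each of these spots had a higher log2 ratio at 12 hours than at 6 hours.

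**Figure D4:**
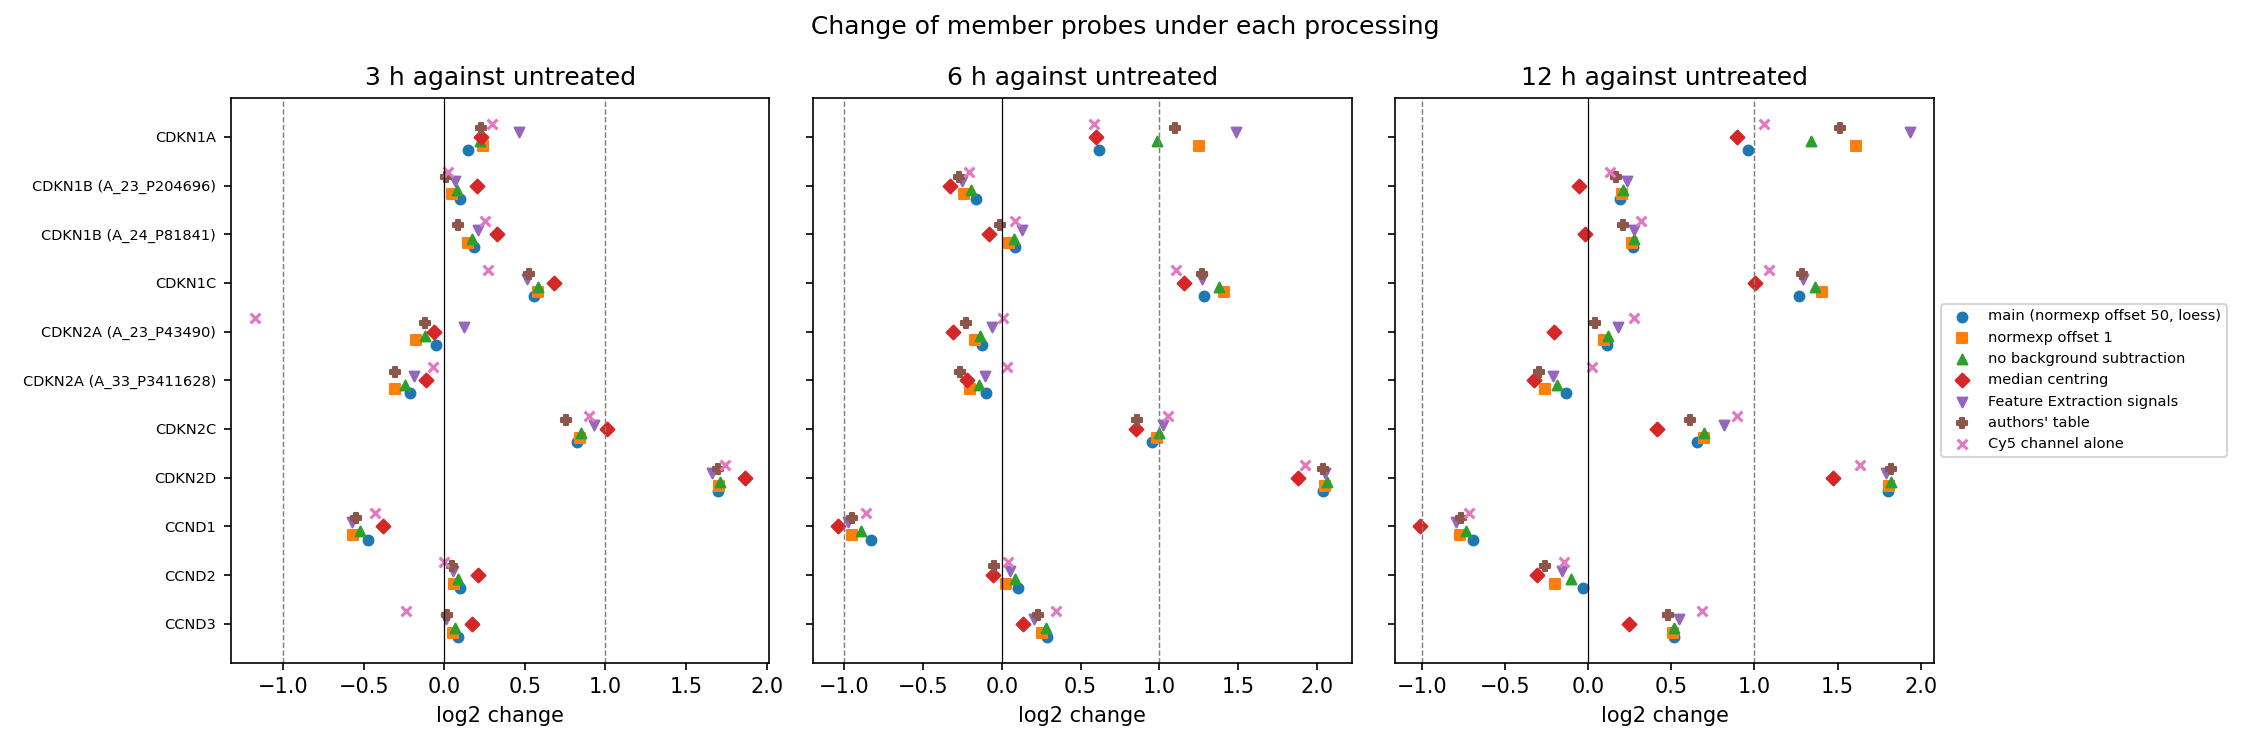
Log2 change of each measured member probe at 3, 6 and 12 hours under 7 processings, which take the signal, background and normalization in different ways. Dashed lines mark 2-fold. CDKN2D points stay beyond 1 at all times, CDKN1A points spread from 0.90 to 1.93 at 12 hours, and the CDKN2A point at -1.17 at 3 hours is the Cy5 channel alone.

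The other genes of the pathway were read from lists, each gene by its probe with the highest mean Cy3 signal, beside the median over all genes measured, which was 0.01, 0.02 and 0.01 at 3, 6 and 12 hours. Over all genes 1.69%, 2.81% and 2.34% rose 2-fold and 0.366%, 0.939% and 1.12% fell 2-fold. Of 12 genes for the G1 kinases, cyclins E and A and CDK activation, 11 were measured, and their median log2 changes were 0.29, 0.49 and 0.59. CDK4 was not, since its spot on the untreated array was flagged. Only CDK7, the catalytic subunit of the kinase that activates other CDKs, passed 2-fold, with 0.87, 1.19 and 0.68, and with 1.01 at 3 hours under median centring. MNAT1 and CCNH, the other subunits of that kinase, had 0.52, 0.92 and 0.90 and 0.27, 0.49 and 0.70, and no gene of the list fell 2-fold. With an offset of 1 CDK2, the kinase that Cip/Kip proteins block, also passed 2-fold, with 1.15 at both 6 and 12 hours against 0.91 and 0.89.

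Of 13 genes of the RB family and E2F factors, 12 were measured, and their medians were -0.10, -0.13 and 0.00. TFDP2, a partner of E2F factors in DNA binding, was the only one past 2-fold, with 1.09, 0.78 and 1.05. Its spot lay in a damaged area of the 3 hour array, where its Cy5 change alone was -0.81, and its 12 hour change was 0.79 under median centring and 0.91 in Cy5 alone. TFDP1, its paralog, had 0.04, -0.16 and -0.60, and -1.02 at 12 hours under median centring. The other TFDP1 probe gave -0.18, -0.15 and -0.32, and -0.56 at 12 hours under median centring. RB1 had log2 changes of 0.10, 0.45 and 0.39. Its changes at 6 and 12 hours were 0.26 and 0.05 under median centring, and 0.27 and 0.21 in Cy5 alone.

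Of 18 genes that break down or stabilise the CDK inhibitors and D cyclins, 17 were measured and none passed 2-fold, with medians of 0.05, 0.02 and -0.08. The largest change at 12 hours was that of SKP1, an adaptor of the SCF ubiquitin ligases, at 0.79, with 0.73 at 6 hours. CUL1, the scaffold of the same ligases, had the largest at 6 hours, at -0.88, and had -0.74 at 12 hours. Under median centring CUL1 was past 2-fold, at -1.12 and -1.09, and SKP1 had 0.34 at 12 hours. Cy5 alone gave -1.08 for CUL1 at 6 hours, and 0.40 and 0.43 for SKP1 at 6 and 12 hours. The other SKP1 probe had smaller changes of 0.28 and 0.46 at these times.

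Of 20 transcription factors known to act on the members, 19 were measured, with medians of 0.12, 0.03 and 0.14. MYC, which represses several CDK inhibitor genes, had log2 changes of -0.90, -1.07 and -0.35 and passed 2-fold at 6 hours only, with -1.03 at 3 hours in Cy5 alone. The largest change at 12 hours was that of CBX7, a Polycomb protein that represses the CDKN2A locus, at 0.99, while its other probe gave 0.11. With a normexp offset of 1 CBX7 had 1.14 and FOXO4, a forkhead factor that acts on CDKN1B, had 1.40 and 1.63 at 6 and 12 hours, where the main processing gave 0.71 and 0.83.

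The direction of several list medians depended on the scaling. Median centring moved the median of all genes to 0.08, -0.08 and -0.16, and with it the 12 hour medians became 0.25 for the G1 kinase list, -0.28 for the RB and E2F list, -0.29 for the turnover list and -0.17 for the transcription factors.

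**Figure D5:**
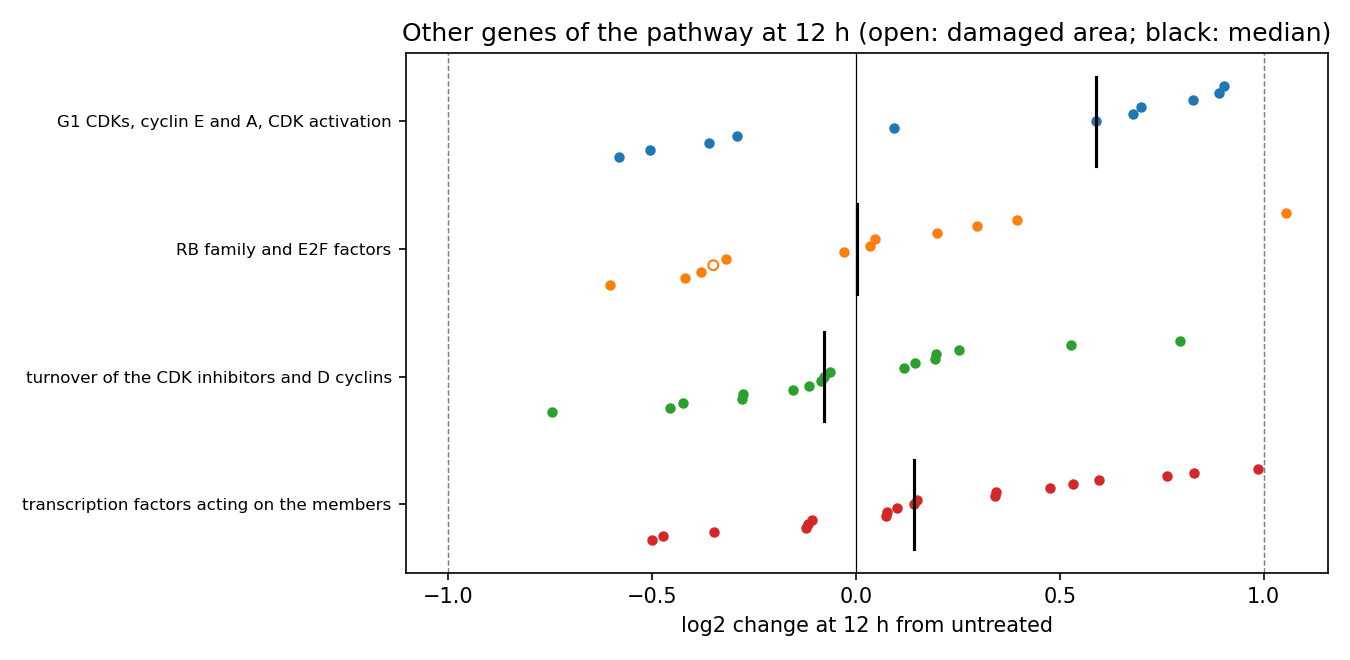
Log2 change of Cy5 over Cy3 at 12 hours for the measured genes of 4 pathway lists, 1 point per gene, with a black line for the list median, open points for spots in a damaged area and dashed lines at 2-fold. Only TFDP2, at 1.05, lies beyond a line.

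For the members that passed 2-fold, the genes with the most similar changes were sought among 18560 genes that were well above background on all arrays and outside damaged areas, by the root mean square difference over the 3 log2 changes. Nearest to CDKN1C were RCAN1 at 0.053, BMP6 at 0.065 and PVRL2 at 0.073. Nearest to CDKN2D were RNF182 at 0.16, ZNF204P at 0.18 and lnc-ACER2-1 at 0.19. The 3 changes share the untreated array, so this likeness is a description.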

How the data were processed

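RNA of untreated and Ricolinostat-treated SUM149 cells was hybridised to 4 two-colour Agilent arrays. Spot and background intensities deposited by the authors came from Feature Extraction 12.0.1.1 per the file headers (hg19 design), with a log10 ratio and flags for outliers and background. A second deposited table holds the authors' normalized log2 ratios, whose normalization is not given in the sources used here. The column medians of that table were 0.0654, 0.0589, 0.0423 and 0.0443, and over detected probes it correlated best with ratios from a normexp offset of 1 (r of 0.994 or higher across probes). It was used for symbols and as an alternative, and 0 columns of sample values were left out.

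Median spot signals were background-corrected (normexp, offset 50), controls were dropped, flagged outlier spots set aside, and arrays normalized by loess and Aquantile (limma 3.58.1, R 4.3.3). Repeated spots were averaged into probes. A probe counted as measured if both arrays flagged it well above background in Cy5 and Cy3, and was called at a log2 change of 1. Damaged areas were windows of 13 rows by 7 columns in which at least 10% of spots were defective. A spot was defective if flagged, or if its log2 Cy3 lay more than 1 from its median over the arrays. Named are the 10 members, genes of the lists past 2-fold at any time or with the largest change at 12 hours, and the 3 genes nearest to a called member; CCNH, CDK2, FOXO4, RB1, TFDP1 and CUL1 were named after their values were seen. A gene and a list that were also computed are not reported here. Members and lists were chosen with earlier results of these data known. Alternatives covered the background correction, normalization, Cy5 alone, the authors' table, damaged areas, dim-probe filters and thresholds. The number of arrays limits the precision. The normalization was tested on simulated data, where 98.9% of 92 bright planted spots passed 2-fold and 26.9% of 108 dim ones. All planted changes were larger than 2-fold, so these shares are not detection rates for changes near the 2-fold line. Tables were handled in Python 3.11.15 with pandas 2.3.3. Probe positions are not given, and promoter windows and their coordinates are RefSeq's on GRCh38.p14.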

Additional observations from a re-analysis of the deposited data

Results flagged for a closer look

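The Cy3 values of each of the 12 member probes were examined over the 4 arrays, since all hold 1 reference, and 2 probes had an array that stood apart. Chance alone sets about 1 in 20 such groups apart. At the CDKN2A probe A_23_P43490 the gap of the 3 hour array to the nearest other array was 0.874 of the whole range, with a normalized log2 Cy3 of 10.30 against 11.42 to 11.59. Cy5 was low on the same spot, at 8.48 against 9.65 to 9.93, so that the ratio changed by -0.05 and Cy5 alone by -1.17. At the CDKN2A probe A_33_P3411628 the gap of the untreated array was 0.83 of a range of 0.16 log2 units. The cause was not tested.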

How the results depend on the processing

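CDKN2D at 3, 6 and 12 hours and CDKN1C at 6 and 12 hours were past 2-fold under all 9 processings, of which 2 (no normalization between arrays, damaged areas left out) cannot move a member's value. In the main processing 1, 2 and 2 member probes and genes rose 2-fold and 0 fell. Median centring gave 2 that rose at 3 hours, and 1 that fell at 6 hours and at 12 hours (CCND1). Feature Extraction's signals gave 4 that rose at 6 hours, adding CDKN1A and CDKN2C. Cy5 alone gave 1 that fell at 3 hours (CDKN2A). A 1.5-fold threshold gave 2, 4 and 4 that rose and 1 and 1 that fell at 6 and 12 hours, and a 4-fold threshold 0, 1 and 0 that rose. CDKN1A passed 2-fold under 3 of the 9 processings at 6 hours and 5 at 12 hours. No called member change turned its direction, whereas the 3 hour call of TFDP2 (1.09) was -0.81 in Cy5 alone. Over all probes, 418, 671 and 560 rose and 95, 240 and 288 fell at 3, 6 and 12 hours. An offset of 1 gave 940, 1357 and 1198 that rose and 330, 668 and 743 that fell, no background subtraction 681, 1008 and 862 and 168, 398 and 460, Feature Extraction's signals 996, 1534 and 1405 and 613, 997 and 1104, and the authors' normalized ratios 686, 1038 and 950 and 256, 576 and 619. Median centring turned the balance at 12 hours, with 310 that rose and 889 that fell, and gave 505 that fell at 6 hours. Cy5 alone gave 316 that fell at 3 hours, and leaving out damaged areas gave 248 that rose and 63 that fell there. Dim signals limit CDKN1A, CCND2 and the CDKN2A variant 1 probe most, and CDKN2B lies at background. The mean spot signal was to be tried as well and was not run because the array tables used here hold only the median. No paired analysis was possible because no condition had a second array.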
